A study of Mus musculus with 9 samples.

Results

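The genes described here are 30 genes used as markers of monocytes, macrophages and dendritic cells. They were taken by symbol from the 39179 gene rows of the count table, and all 30 were found. They comprised 11 genes of tissue-resident macrophages, 9 of monocytes, 4 of dendritic cells and 6 shared by these cells. A gene was tested when enough reads covered it in enough libraries, which 18576 genes and 29 of the 30 did. The other one, Cd300e, an activating receptor of monocytes, held 0 to 8 counts per library.

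Mononuclear phagocytes arise in bone marrow from progenitors that depend on the transcription factors PU.1 and Irf8 and on the cytokine receptor Csf1r. Monocytes leave the marrow through the chemokine receptor Ccr2, dendritic cells present antigen, and resident macrophages clear dying cells and expelled erythroid nuclei and take part in holding stem cells in their niche. Marrow macrophages carry the adhesion molecule Vcam1 and the sialic acid lectin Siglec1, and macrophages are a main source of complement C1q. Csf1r, Irf8 and Lyz2 are also transcribed in early myeloid progenitors, so they do not mark mature cells alone.

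The RNA came from LSK cells, sorted from mouse bone marrow after depletion of lineage-marked cells by their surface Sca1 and cKit, a gate that holds stem cells and multipotent progenitors. All animals were C57BL/6 mice aged 6 months, and 5 injections of poly(I:C) are listed for every sample. The mutant group (genotype cKI_Mx+, Dnmt3a+/m in the design text) carried Mx1-Cre together with a Dnmt3a allele that turns mutant on recombination and gave 4 libraries, called after their group and the number the submitters gave them, mutant_824, mutant_827, mutant_829 and mutant_830. The Cre-negative group, labelled cKI_Cre- and given as Dnmt3a+/- in the design text, carried no Cre and gave 2 libraries, cre_negative_780 and cre_negative_819. Whether its second allele is null or an unrecombined conditional one is not settled by these sources. The wild-type group (wt_Mx+, Dnmt3a+/+) carried Mx1-Cre and gave 3 libraries. The Mx1 promoter that drives Cre answers to interferon in many tissues besides blood. Cre-negative and wild-type animals differ in both Cre and the Dnmt3a allele, and these cannot be told apart here. The same holds for mutant and Cre-negative animals, given as Dnmt3a+/m with Cre and Dnmt3a+/- without it.

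Each library held 47792306 to 58405879 counts assigned to genes. Levels are read counts expressed as CPM, a share of the TMM-scaled library size. Dnmt3a, the targeted gene, stood at 153 to 171 CPM in mutant libraries, 118 and 93.5 CPM in Cre-negative libraries and 148 to 173 CPM in wild-type libraries. Its gene-level count does not separate the mutant from the normal transcript. Stem and progenitor markers were read in all libraries: a list of 10 summed to 2486 to 3052 CPM in mutant, 2072 and 3060 CPM in Cre-negative and 2844 to 3048 CPM in wild-type libraries. Kit itself stood at 398 to 489 CPM in mutant, 502 and 407 CPM in Cre-negative and 369 to 539 CPM in wild-type libraries. Y-linked transcripts were present in 5 libraries, among them mutant_824, mutant_827 and cre_negative_780, and absent from 4, among them mutant_829, mutant_830 and cre_negative_819, and each group had both kinds. Libraries also differed in markers of other cell types, above all cre_negative_819 in erythroid markers.

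PU.1, encoded by Spi1, binds purine-rich elements around the letters GAGGAA and has many targets among phagocyte genes. The RefSeq promoter table for GRCm38.p6, with windows of 300 bases per start, held 25 of the 30 genes in 30 windows, some of which overlap. Siglec1, C1qa, Vcam1, Csf1r and Adgre1 were not in it. The core GAGGAA, on either strand (its reverse is TTCCTC), was present in 18 of the 30 windows, or 60%, of 15 genes, against 28.3% of all 32851 windows. The longer element GAGGAAGT, which contains the core, was present in 5 of the 30 windows, or 16.7%, against 3.20% of all windows. Those 5 windows belong to C1qc, Ctss, F13a1 and Ly6c2, the last with overlapping windows. A match is a string of letters and not a measured binding site. The 4 sequences below are the windows of these genes, read in the direction of the gene from 250 bases before its start to 30 after it, with the longer element or its reverse ACTTCCTC in capitals. C1qc lies on the minus strand at chr4:136892885-136893164, Ctss on the plus strand at chr3:95526536-95526815, F13a1 on the minus strand at chr13:37049184-37049463 and Ly6c2 on the minus strand at chr15:75111908-75112187.
C1qc: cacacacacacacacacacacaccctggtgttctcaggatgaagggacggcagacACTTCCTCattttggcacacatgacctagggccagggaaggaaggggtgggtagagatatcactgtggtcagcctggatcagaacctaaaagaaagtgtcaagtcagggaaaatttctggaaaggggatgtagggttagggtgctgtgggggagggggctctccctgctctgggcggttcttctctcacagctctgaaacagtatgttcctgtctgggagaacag
Ctss: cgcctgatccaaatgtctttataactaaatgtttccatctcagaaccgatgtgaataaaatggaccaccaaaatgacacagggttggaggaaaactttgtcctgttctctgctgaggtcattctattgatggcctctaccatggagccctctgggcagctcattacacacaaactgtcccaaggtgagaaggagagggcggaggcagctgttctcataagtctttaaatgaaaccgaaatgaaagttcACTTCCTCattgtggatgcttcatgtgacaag
F13a1: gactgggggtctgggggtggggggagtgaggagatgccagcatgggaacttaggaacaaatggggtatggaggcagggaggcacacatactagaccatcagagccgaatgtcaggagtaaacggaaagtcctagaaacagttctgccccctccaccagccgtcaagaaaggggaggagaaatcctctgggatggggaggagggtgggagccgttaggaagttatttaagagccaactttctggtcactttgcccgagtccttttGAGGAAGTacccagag
Ly6c2: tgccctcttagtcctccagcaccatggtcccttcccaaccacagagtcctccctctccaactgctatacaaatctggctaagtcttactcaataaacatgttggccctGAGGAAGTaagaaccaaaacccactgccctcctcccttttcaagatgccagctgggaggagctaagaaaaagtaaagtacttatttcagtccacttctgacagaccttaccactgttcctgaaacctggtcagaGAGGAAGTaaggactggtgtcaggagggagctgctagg

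The element lies close to the start in Ctss and well before it in C1qc, and Ly6c2 carries it at 2 places. The table lists 2 starts for F13a1: the window shown belongs to the inner one and holds the element close to that start, while the window of the outer start holds the core only. C1qc and Ctss were both highest in cre_negative_780, F13a1 in cre_negative_819 and Ly6c2 in mutant_827.

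Across the 30 genes, levels per kilobase of exon differed widely. Lyz2, the lysozyme of monocytes and macrophages, was highest with a mean of 164 CPM per kilobase over the 9 libraries. Ctss followed with 27.6, Ly6c2 with 25.2, Ms4a6c with 18.7, Fcgr3 with 16.2 and F13a1 with 14.4 CPM per kilobase. The macrophage genes were lower, from 2.97 CPM per kilobase for Axl and 2.62 for C1qa to 0.198 for Siglec1 and 0.0616 for Marco. At the bottom were Klra2, Ms4a7, Marco and Cd300e, each under 0.1 CPM per kilobase. In all, 24 genes had a mean of at least 1 CPM, and the other 6 are described by their ranges.

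**Figure D1:**
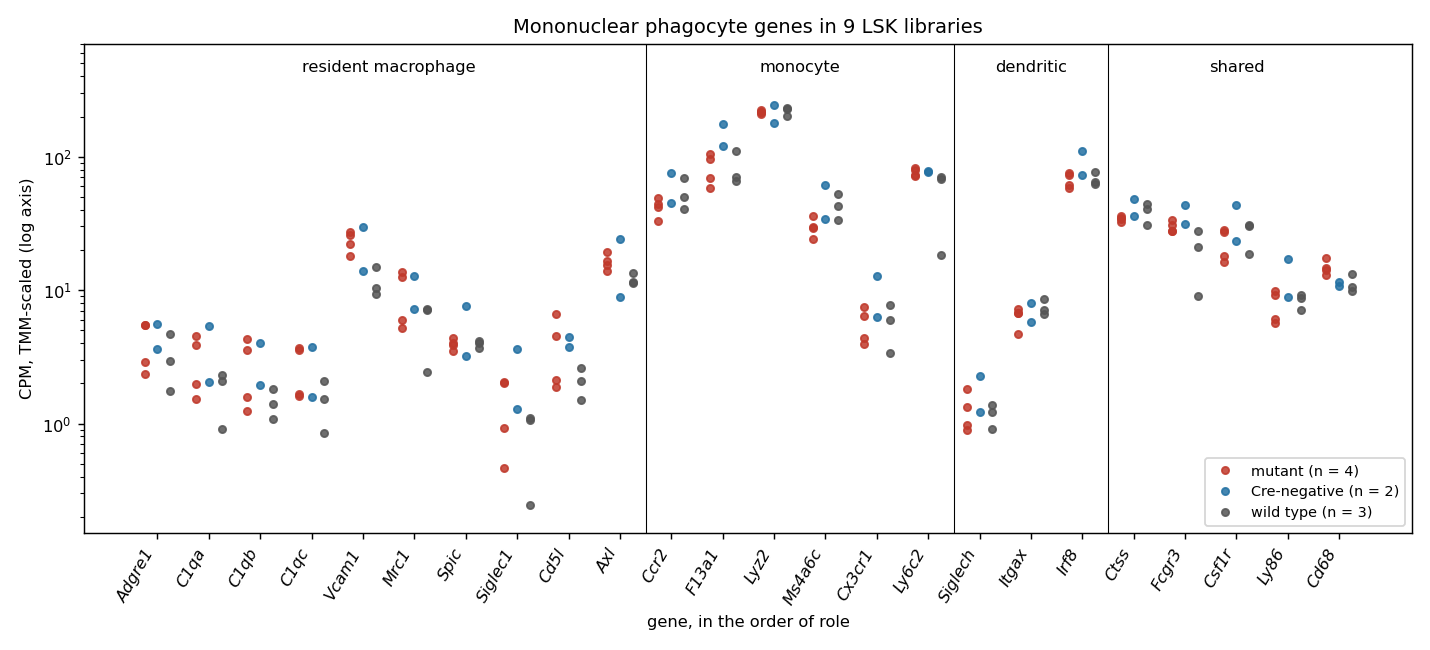
Level of the 24 genes with a mean of at least 1 CPM in each of the 9 LSK libraries, on a log axis in CPM, with 1 point per library, grouped by role and coloured by mutant, Cre-negative and wild type. Lyz2 stood highest and tightest, between 179 and 244 CPM, whereas Siglec1 spread from 0.246 to 3.62 CPM.

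No gene passed the threshold in any comparison: edgeR's quasi-likelihood test called 0 of 18576 genes (0%) at an adjusted p of 0.05 between mutant and wild type, between Cre-negative and wild type, and between mutant and Cre-negative. At an unadjusted p under 0.05 it gave 589, 972 and 978 genes in that order. DESeq2 called 36, 55 and 22 genes (0.194%, 0.296% and 0.118%), none of the 30 among them. Limma-voom with sample quality weights called 13, 0 and 0 genes (0.07%, 0% and 0%), and 1 of the 13 was Vcam1. All differences below are therefore given as values, with the standard error (SE) of the log2 fold change. In bulk RNA, fewer cells of a type and less RNA per cell cannot be told apart.

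Between mutant and wild-type libraries, the 11 resident macrophage genes leaned towards mutant, while the monocyte, dendritic and shared genes were centred near 0. Of the 29 tested genes, 18 had a positive log2 fold change, against a background of 45.7% of all genes tested. Their median was 0.40, against -0.02 for all genes. By role, 10 of 11 resident macrophage genes were positive with a median of 0.76, as were 4 of 8 monocyte genes (median -0.01), 2 of 4 dendritic cell genes (0.05) and 2 of 6 shared genes (-0.12). Vcam1 and Cd68 reached an unadjusted p under 0.05 in the higher direction, where 1.86% of all genes did. Ms4a6c did so in the lower direction, where 1.31% did. All 3 had an adjusted p of 0.998 in edgeR. Limma-voom with sample quality weights gave 25 of the 29 positive and 16 higher at an unadjusted p under 0.05, against 7.47% of all genes in that fit, and 1 lower, against 5.33%. In the same comparison 10 of 12 mature neutrophil markers (median 1.42) and 12 of 12 B cell markers (0.82) were positive, and their part in these values was not tested.

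Vcam1 had the lowest p of the 29 genes between mutant and wild type. It encodes the vascular cell adhesion molecule that binds integrins on blood cells, and is made by macrophages, endothelium and stroma (chromosome 3, 116109949 to 116129688 of GRCm38, minus strand). Its level was 18.1, 22.4, 26.0 and 27.2 CPM in mutant libraries, 29.8 and 14.0 CPM in Cre-negative libraries, and 14.9, 9.41 and 10.4 CPM in wild-type libraries. Every mutant library lay above every wild-type library, while the Cre-negative libraries fell on both sides of the mutant range. The mutant level was 2.03 times that of wild type, a log2 fold change of 1.02 (SE 0.27, 95% interval 0.43 to 1.61; unadjusted p = 0.00323 in edgeR). Across all 18 alternatives this value stayed between 0.90 and 1.27. Limma-voom with quality weights gave Vcam1 an adjusted p of 0.0425, the smallest over these alternatives. Within libraries that hold Y-linked transcripts the mutant mean was 20.3 CPM against 9.89 CPM in wild type, and within those that do not, 26.6 CPM against 14.9 CPM (2 libraries against 1). A list of 10 stromal and endothelial markers, cell types that also make Vcam1, summed to 95.5 to 136 CPM in mutant, 116 and 89.6 CPM in Cre-negative and 111 to 130 CPM in wild-type libraries. Of its 9 tested genes, 4 were positive between mutant and wild type, with a median of -0.04. Most of the summed level came from Pdgfrb and Emcn. Col1a2, a collagen chain of stromal cells on this list, named here after its values were seen, stood at 9.44, 5.32, 7.95 and 10.8 CPM in mutant libraries, 17.8 and 7.35 CPM in Cre-negative libraries, and 5.66, 1.24 and 2.35 CPM in wild-type libraries. Its mutant-minus-wild-type log2 fold change was 1.44 (SE 0.49, unadjusted p = 0.0147, adjusted p = 0.998 in edgeR). The other collagen genes on this list did not follow Col1a2. Col1a1 stood at 2.10, 0.143, 0.0530 and 0.266 CPM in mutant libraries. It stood at 0.0842 and 0.0916 CPM in Cre-negative libraries and 0.0931, 0.120 and 0.208 CPM in wild-type libraries. Col3a1 held 13 counts in total and was not tested. The part of stromal cells in the Vcam1 difference was not tested.

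The complement genes C1qa, C1qb and C1qc encode the chains of C1q, the recognition unit of the classical complement pathway, and lie next to each other on chromosome 4 of GRCm38 between 136880129 and 136898803. C1qa stood at 1.98, 1.52, 3.87 and 4.50 CPM in mutant libraries, 5.35 and 2.03 CPM in Cre-negative libraries, and 2.09, 2.31 and 0.909 CPM in wild-type libraries. C1qb stood at 1.58, 1.25, 3.59 and 4.33 CPM in mutant, 4.02 and 1.94 CPM in Cre-negative, and 1.40, 1.81 and 1.08 CPM in wild-type libraries. C1qc stood at 1.66, 1.61, 3.69 and 3.53 CPM in mutant, 3.73 and 1.58 CPM in Cre-negative, and 2.07, 1.53 and 0.852 CPM in wild-type libraries. The 3 chains moved together: mutant_829 and mutant_830 and cre_negative_780 were high for all of them, and the other libraries were lower. Their sum was 5.21, 4.38, 11.1 and 12.4 CPM in mutant libraries, 13.1 and 5.55 CPM in Cre-negative libraries, and 5.55, 5.64 and 2.84 CPM in wild-type libraries. Within each library C1qa made up 32% to 40.9% of the sum. The mutant and wild-type ranges overlapped for each chain, with mutant-minus-wild-type log2 fold changes of 0.75 for C1qa (SE 0.49), 0.91 for C1qb (SE 0.46) and 0.82 for C1qc (SE 0.45).

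The same 3 libraries carried the high values of other resident macrophage genes. Mrc1, the mannose receptor, stood at 5.95, 5.22, 13.7 and 12.6 CPM in mutant libraries, 12.8 and 7.25 CPM in Cre-negative libraries, and 7.24, 7.07 and 2.42 CPM in wild-type libraries. Siglec1, the sialoadhesin of marrow and lymph node macrophages, stood at 0.918, 0.464, 2.01 and 2.03 CPM in mutant, 3.62 and 1.28 CPM in Cre-negative, and 1.06, 1.10 and 0.246 CPM in wild-type libraries. Cd5l, a secreted protein of macrophages that inhibits apoptosis, stood at 1.88, 2.13, 6.57 and 4.56 CPM in mutant, 4.44 and 3.77 CPM in Cre-negative, and 2.07, 2.63 and 1.51 CPM in wild-type libraries. For each of these genes, 2 mutant libraries lay within the wild-type range and 2 above it. Their mutant-minus-wild-type log2 fold changes were 0.75 for Mrc1 (SE 0.45), 0.76 for Siglec1 (SE 0.63) and 0.87 for Cd5l (SE 0.43).

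Adgre1, the surface antigen by which mouse macrophages are most often recognised, followed the split less closely. It stood at 2.90, 2.34, 5.46 and 5.45 CPM in mutant libraries, 3.64 and 5.53 CPM in Cre-negative libraries, and 4.69, 2.95 and 1.74 CPM in wild-type libraries. Axl, a receptor tyrosine kinase for Gas6 in the uptake of dying cells, stood at 15.3, 14.0, 19.2 and 16.5 CPM in mutant, 24.3 and 8.94 CPM in Cre-negative, and 11.4, 11.4 and 13.4 CPM in wild-type libraries. Every mutant library was above every wild-type library for Axl, with a log2 fold change of 0.43 (SE 0.28, 95% interval -0.19 to 1.05). Spic, the transcription factor of iron-recycling red pulp macrophages, was the exception within its role. It stood at 3.87, 4.41, 4.03 and 3.50 CPM in mutant, 7.64 and 3.19 CPM in Cre-negative, and 4.02, 4.18 and 3.69 CPM in wild-type libraries. Mutant and wild-type libraries covered the same range for Spic, and only cre_negative_780 stood apart. Marco, a scavenger receptor, held 0 to 25 counts per library and its fold change could not be read.

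**Figure D2:**
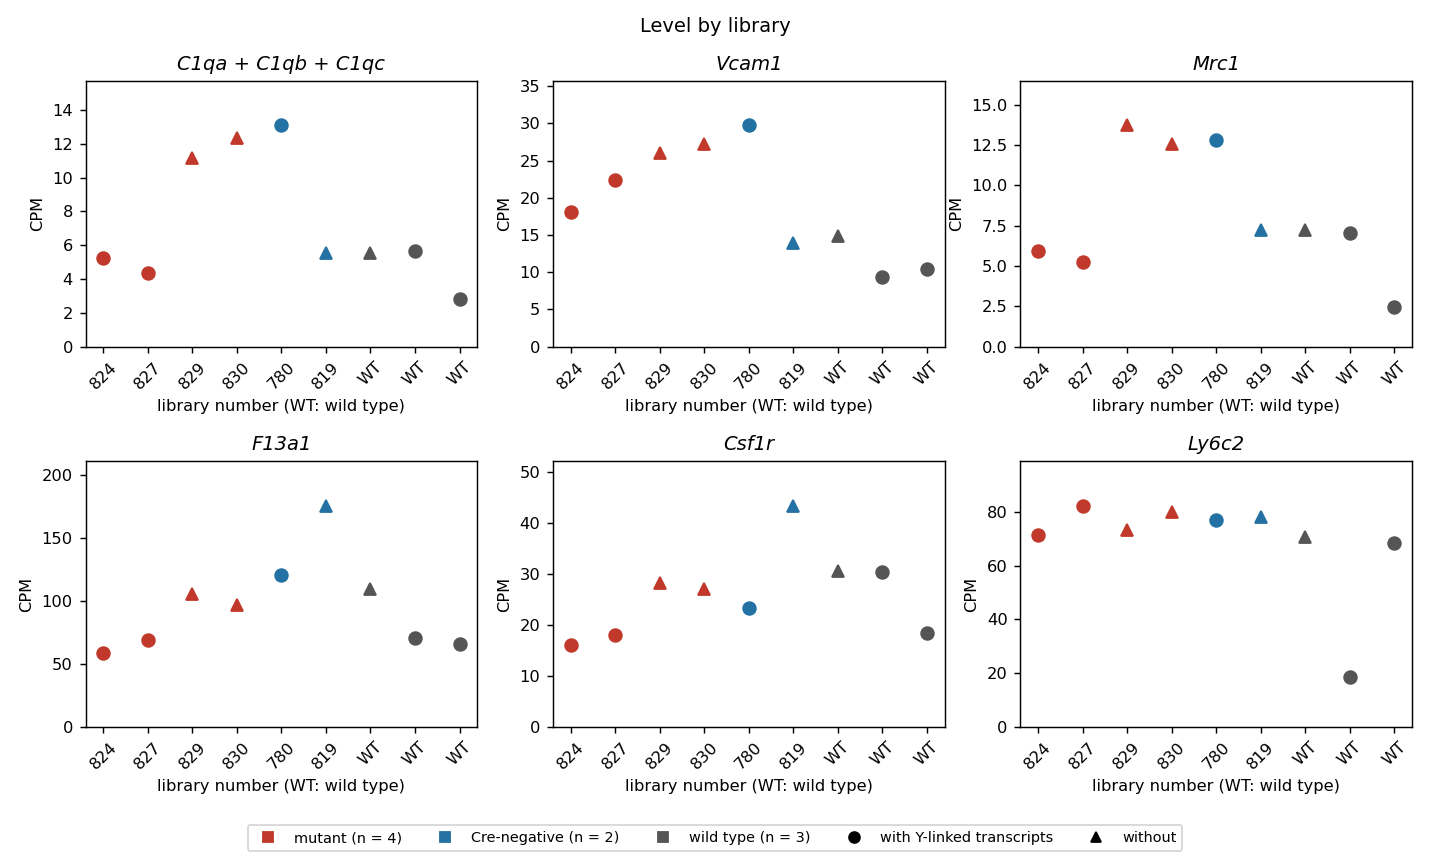
Level in CPM of the summed C1q genes, Vcam1, Mrc1, F13a1, Csf1r and Ly6c2 in each library, coloured by group, with circles for libraries that hold Y-linked transcripts and triangles for those that do not. The C1q sum and Mrc1 were high in mutant_829 and mutant_830 and cre_negative_780, and F13a1 and Csf1r were highest in cre_negative_819.

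The division among the mutant libraries followed Y-linked transcripts. For 20 of the 29 tested genes, both mutant libraries without them (mutant_829 and mutant_830) lay above both with them (mutant_824 and mutant_827), and for 0 genes they lay below. Among all genes tested the shares were 25.8% above and 28.4% below. Of the 11 resident macrophage genes 9 were among the 20, as were Ccr2, F13a1, Ms4a6c, Cx3cr1, Siglech, Irf8, Csf1r, Ly86 and the sparse Ms4a7, Cd209a and Fcgr1. The gap was wide for Cd5l, with 4.56 and 6.57 CPM in the libraries without Y-linked transcripts and 1.88 and 2.13 CPM in those with them, whereas Lyz2, Ly6c2 and Ctss overlapped. The Cre-negative libraries ran the other way for the resident macrophage genes. Those summed to 99.3 CPM in cre_negative_780, with Y-linked transcripts, and 49.8 CPM in cre_negative_819, without them. The monocyte genes summed to 528 and 584 CPM in the same order. The split of 2 against 2 mutant libraries was chosen after the data were seen, and no test was made of it. The comparison of mutant with wild type was therefore also read within each kind. Over the 24 genes with at least 1 CPM, the median log2 ratio of mutant over wild type was 0.14 without Y-linked transcripts (2 libraries against 1) and -0.003 with them (2 against 2). For the resident macrophage genes alone it was 0.85 and 0.14. Vcam1 differed by a similar amount in both kinds, with log2 ratios of 0.84 without and 1.03 with Y-linked transcripts, whereas C1qb gave 1.5 and -0.03.

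Monocyte genes gave no common direction between mutant and wild type. Ms4a6c, a membrane-spanning protein of monocytes, stood at 24.3, 29.3, 29.9 and 35.8 CPM in mutant libraries, 34.4 and 61.5 CPM in Cre-negative libraries, and 42.8, 52.8 and 33.4 CPM in wild-type libraries. Its log2 fold change was -0.53 (SE 0.22, 95% interval -1.01 to -0.04; unadjusted p = 0.0352 in edgeR), and the highest mutant library overlapped the lowest wild-type one. Ccr2 stood at 33.2, 41.7, 44.6 and 49.4 CPM in mutant libraries, 45.2 and 75.3 CPM in Cre-negative libraries, and 49.7, 69.3 and 40.5 CPM in wild-type libraries, with a log2 fold change of -0.33 (SE 0.22). Lyz2 spread least over the 9 libraries of the 24 genes with at least 1 CPM, at 218, 216, 209 and 222 CPM in mutant, 244 and 179 CPM in Cre-negative, and 231, 227 and 200.4 CPM in wild-type libraries. Its mutant-minus-wild-type log2 fold change was -0.02, with a 95% interval of -0.27 to 0.23. Cx3cr1, the fractalkine receptor, stood at 3.95, 4.39, 7.47 and 6.40 CPM in mutant, 6.30 and 12.8 CPM in Cre-negative, and 7.77, 6.00 and 3.41 CPM in wild-type libraries. Its annotated span overlaps other genes, among them Wdr48 on the other strand, and reads at the overlap are uncertain. Ms4a7 with 2 to 49 counts and Klra2 with 1 to 27 counts were too sparse to compare by level.

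Ly6c2, the surface antigen that marks classical monocytes, was even across mutant and Cre-negative libraries. It stood at 71.5, 82.5, 73.4 and 80.0 CPM in mutant libraries, 77.0 and 78.3 CPM in Cre-negative libraries, and 70.9, 18.5 and 68.6 CPM in wild-type libraries. The wild-type values were spread far more widely than those of the other groups. Fcgr3, the low-affinity immunoglobulin G receptor, stood at 27.8, 33.8, 27.6 and 30.7 CPM in mutant, 43.6 and 31.3 CPM in Cre-negative, and 27.5, 9.09 and 21.0 CPM in wild-type libraries. Mutant libraries lay above all 3 wild-type libraries for both Ly6c2 and Fcgr3, narrowly so for the nearest values. Near-identical family members share reads with Ly6c2, Lyz2 and Fcgr3, so their levels are uncertain.

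In all, every mutant library lay above every wild-type library for 5 of the 29 genes: Vcam1, Axl, Fcgr3, Ly6c2 and Cd209a. The reverse held for 0 genes. Among all genes tested 4.17% lay above and 4.15% below. Leaving out 1 wild-type library at a time gave 5 to 7 genes above, with 6.82% to 10.2% of all genes, and 0 to 4 genes below, with 8.86% to 10.1%. Cd209a, a lectin of dendritic cells, held only 4 to 30 counts per library.

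Among dendritic cell genes, Irf8, the transcription factor needed for dendritic cells and monocytes, stood at 58.2, 61.1, 75.3 and 73.2 CPM in mutant libraries, 72.6 and 111 CPM in Cre-negative libraries, and 76.5, 64.9 and 62.0 CPM in wild-type libraries. Itgax, an integrin chain of dendritic cells and macrophages, stood at 4.65, 7.25, 6.76 and 6.73 CPM in mutant, 8.0 and 5.79 CPM in Cre-negative, and 6.67, 7.09 and 8.52 CPM in wild-type libraries. Siglech, a lectin of plasmacytoid dendritic cells, stood at 0.899, 0.983, 1.34 and 1.82 CPM in mutant, 2.25 and 1.23 CPM in Cre-negative, and 1.21, 1.39 and 0.909 CPM in wild-type libraries. Mutant and wild-type libraries overlapped for all 3. Their 95% intervals for the mutant-minus-wild-type log2 difference were -0.37 to 0.33 for Irf8, -0.67 to 0.22 for Itgax and -0.63 to 0.86 for Siglech.

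Among the shared genes, Cd68, a lysosomal glycoprotein of macrophages, stood at 13.1, 14.8, 17.3 and 14.1 CPM in mutant libraries, 11.6 and 10.8 CPM in Cre-negative libraries, and 10.6, 13.1 and 9.82 CPM in wild-type libraries. It was the only one of the 29 whose mutant level exceeded both other groups at an unadjusted p under 0.05. In edgeR the log2 fold change was 0.40 against wild type (SE 0.15, adjusted p = 0.998). It was 0.40 against Cre-negative as well (SE 0.17, adjusted p = 0.912 in edgeR). Both comparisons use the same mutant libraries. The groups did not overlap between mutant and Cre-negative, while the lowest mutant library and the highest wild-type library met at 13.1 CPM. Csf1r, the receptor for the growth factor of macrophages, stood at 16.2, 17.9, 28.2 and 27.1 CPM in mutant, 23.3 and 43.5 CPM in Cre-negative, and 30.6, 30.4 and 18.5 CPM in wild-type libraries. Its span overlaps Hmgxb3 on the other strand. Ctss, the protease that trims the invariant chain of class II molecules, stood at 32.5, 35.0, 34.0 and 35.8 CPM in mutant, 48.1 and 35.8 CPM in Cre-negative, and 31.0, 44.5 and 40.7 CPM in wild-type libraries. Csf1r and Ctss had mutant-minus-wild-type log2 fold changes of -0.24 (SE 0.28) and -0.18 (SE 0.14). Fcgr1, the high-affinity receptor, held 7 to 48 counts.

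**Figure D3:**
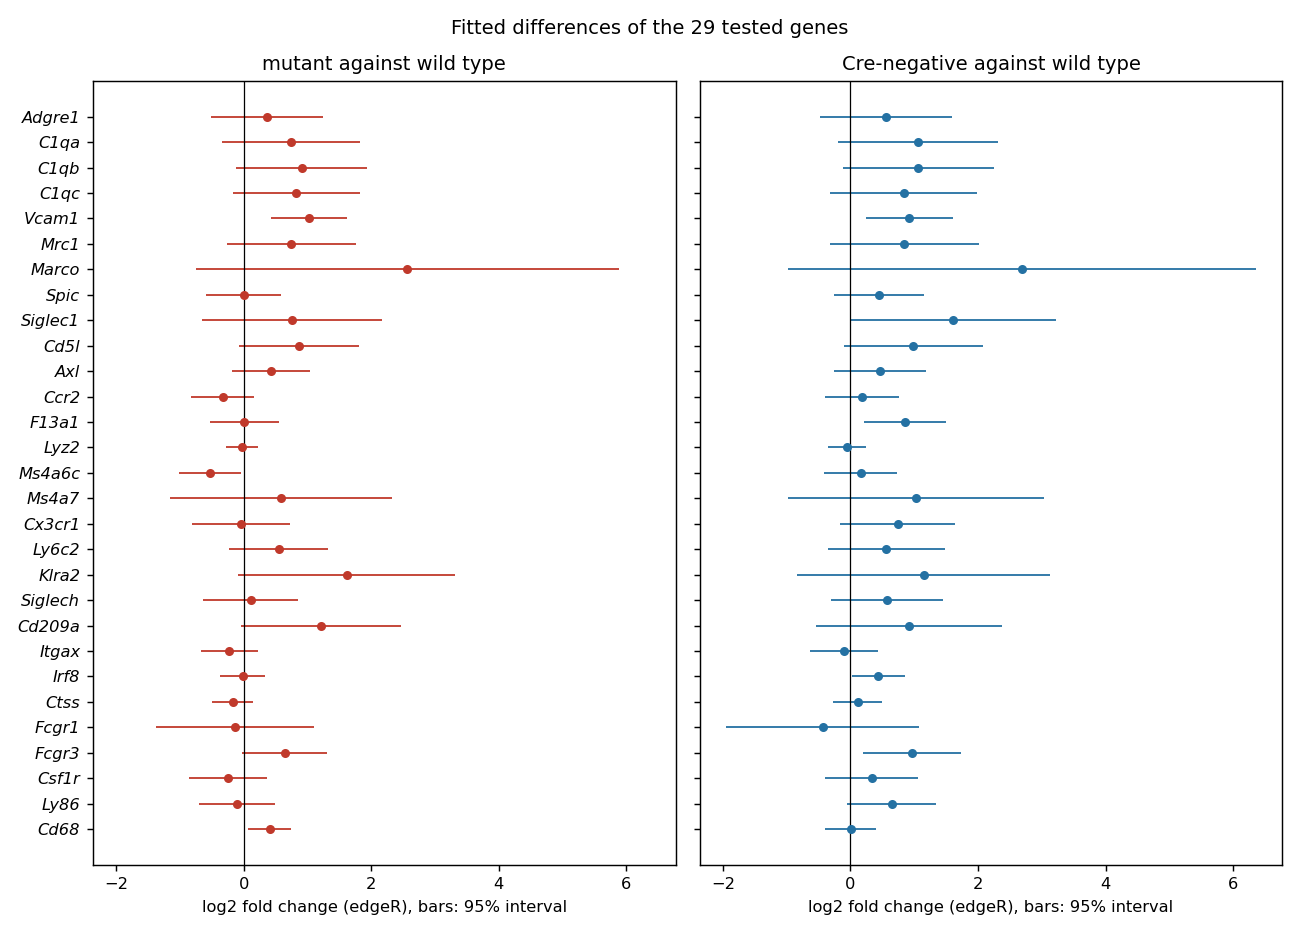
Log2 fold change of the 29 tested genes in edgeR, mutant against wild type on the left and Cre-negative against wild type on the right, with bars for the 95% interval, genes ordered by role from top to bottom and the same axis in both panels. Between mutant and wild type the intervals of Vcam1, Cd68 and Ms4a6c leave out 0, and between Cre-negative and wild type those of Vcam1, F13a1, Fcgr3 and Irf8 do. Both panels use the same wild-type libraries.

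Between Cre-negative and wild-type libraries, genes of all roles leaned towards Cre-negative, some in both Cre-negative libraries and others mainly in 1 of them. Of the 29 tested genes 26 had a positive log2 fold change, against 53.2% of all genes, and their median was 0.64, against 0.02 for all genes. All 11 resident macrophage genes were positive with a median of 0.92, as were 7 of 8 monocyte genes (median 0.65), 3 of 4 dendritic cell genes (0.50) and 5 of 6 shared genes (0.22). F13a1, Fcgr3, Irf8 and Vcam1 reached an unadjusted p under 0.05 in the higher direction, where 3.64% of all genes did. In the lower direction 0 of the 29 did, against 1.59% of all genes. This comparison and that of mutant with wild type share the wild-type libraries. In it 9 of 12 erythroid markers (median 1.3), 11 of 12 mature neutrophil markers (1.2) and 12 of 12 B cell markers (0.69) were positive, and their part in these values was not tested.

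F13a1, the catalytic chain of coagulation factor XIII and a gene of monocytes and marrow macrophages (chromosome 13, 36867178 to 37050244 of GRCm38, minus strand), set the Cre-negative libraries apart. It stood at 58.5, 69.2, 106 and 96.5 CPM in mutant libraries, 120.3 and 176 CPM in Cre-negative libraries, and 109.7, 70.9 and 65.4 CPM in wild-type libraries. Both Cre-negative libraries were above each of the other 7, which held for no other of the 29 genes. The Cre-negative-minus-wild-type log2 fold change was 0.85 (SE 0.29, unadjusted p = 0.0140 and adjusted p = 0.807 in edgeR), and the mutant-minus-Cre-negative one was -0.84 (SE 0.27, unadjusted p = 0.0104 and adjusted p = 0.807 in edgeR). Between mutant and wild type it was 0.01 (95% interval -0.53 to 0.55).

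Both Cre-negative libraries also lay above all 3 wild-type libraries for C1qb, Mrc1, Siglec1, Cd5l, Fcgr3 and Ly6c2, which with F13a1 made 7 of the 29. Among all genes tested 6.25% did so. Both lay below for 0 genes, against 5.12%. With 1 wild-type library left out at a time the count above was 7 to 16, with 8.49% to 15.6% of all genes. With cre_negative_819 or cre_negative_780 left out it was 16 and 17, with 31.8% and 27% of all genes.

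The 2 Cre-negative libraries were the highest of the 9 for most of the 24 genes with at least 1 CPM. The share of all genes for which each was highest was not counted. Lying above every wild-type library is a looser measure. On it cre_negative_780 alone stood above for 16 of the 29 tested genes, against 31.8% of all genes tested. Library cre_negative_819 alone did so for 17 of the 29, against 27%. Library cre_negative_780 was highest for 10, which were C1qa, C1qc, Vcam1, Spic, Siglec1, Axl, Lyz2, Siglech, Ctss and Fcgr3. Library cre_negative_819 was highest for 8, which were Adgre1, Ccr2, F13a1, Ms4a6c, Cx3cr1, Irf8, Csf1r and Ly86. Of these, 6 of the 10 in cre_negative_780 are resident macrophage genes, and 4 of the 8 in cre_negative_819 are monocyte genes. Among all 30 genes 11 are resident macrophage genes and 9 are monocyte genes. These counts are small, and a division by role between the 2 libraries was not tested. Ly86, the partner of a Toll-like receptor homologue on B cells and myeloid cells, stood at 5.63, 6.11, 9.24 and 9.80 CPM in mutant, 8.82 and 17.2 CPM in Cre-negative, and 9.14, 8.73 and 7.08 CPM in wild-type libraries, so that cre_negative_819 alone was high. The same library held 2502 CPM of summed erythroid markers, against 310 CPM in cre_negative_780.

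Read within libraries of the same kind, the 2 Cre-negative libraries also parted. With Y-linked transcripts, the median log2 ratio of Cre-negative over wild type over the 24 genes was 0.82 (cre_negative_780 against 2), and 1.46 for the resident macrophage genes. Without them it was 0.19 (cre_negative_819 against 1), and -0.02 for the resident macrophage genes. For the monocyte genes it was 0.31 with and 0.56 without.

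Between mutant and Cre-negative libraries, 6 of the 29 genes had a positive log2 fold change, against 44.2% of all genes, with a median of -0.19, against -0.03. Only 1 of 11 resident macrophage genes was positive, Vcam1 at 0.10 (95% interval -0.55 to 0.76), yet their median was only -0.12, against -0.48 for the monocyte genes. F13a1, Irf8, Ly86 and Ms4a6c reached an unadjusted p under 0.05 in the lower direction, where 3.71% of all genes did, with log2 fold changes of -0.84, -0.46, -0.76 and -0.69. Their adjusted p values in edgeR were 0.807, 0.897, 0.897 and 0.844. Cd68 was the 1 gene that did so in the higher direction, where 1.55% did. Mutant libraries lay wholly above both Cre-negative ones for Cd68 alone (5.09% of all genes) and wholly below for Ctss and F13a1 (7.27%). For Ctss the nearest values all but met, at 35.753 CPM in mutant_830 and 35.761 CPM in cre_negative_819. Without cre_negative_780, the median of the 29 genes was 0.09, and 4 were called in edgeR, against 9.51% of all genes tested in that fit: Ms4a6c (adjusted p = 0.0262), Irf8 (0.0337) and Ly86 (0.0400) lower, and Axl (0.0244) higher. In that fit the remaining Cre-negative library is assumed to vary like the other groups.

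Further lists held other genes of these cells beyond the 30. Of 18 further macrophage genes tested, 13 were positive between mutant and wild type (median 0.44), 16 between Cre-negative and wild type (0.46) and 3 between mutant and Cre-negative (-0.27). At an unadjusted p under 0.05 in edgeR, 1 of the 18 was higher in mutant than in wild type (1.86% of all genes), 3 were higher in Cre-negative than in wild type (3.64%) and 1 was lower in mutant than in Cre-negative (3.71%). Among them Vsig4, a complement receptor of resident macrophages, stood at 0.0399, 0.286, 0.653 and 1.33 CPM in mutant libraries, 1.62 and 0.421 CPM in Cre-negative libraries, and 0.223, 0.120 and 0.170 CPM in wild-type libraries. Vsig4 was thus highest in mutant_830 and cre_negative_780, with a mutant-minus-wild-type log2 fold change of 1.74 (SE 0.90). Cd14, the co-receptor for lipopolysaccharide, stood at 0.739, 0.750, 0.901 and 0.988 CPM in mutant, 1.12 and 0.641 CPM in Cre-negative, and 0.652, 0.422 and 0.303 CPM in wild-type libraries. Cd163, the haemoglobin scavenger receptor, gave the other sign, at 28.0 to 36.8 CPM in mutant, 45 and 36.3 CPM in Cre-negative and 37.5 to 44.0 CPM in wild-type libraries. Slc40a1, the iron exporter ferroportin of macrophages and erythroid cells, stood at 20.3 to 35.5 CPM in mutant, 29.96 and 119 CPM in Cre-negative and 13.2 to 24.8 CPM in wild-type libraries.

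Of 18 further monocyte genes, 6 were positive between mutant and wild type (median -0.06), 13 between Cre-negative and wild type (0.32) and 6 between mutant and Cre-negative (-0.27). At an unadjusted p under 0.05 in edgeR, 2 of the 18 were lower in mutant than in wild type (1.31% of all genes). Between Cre-negative and wild type 3 were higher (3.64%) and 1 lower (1.59%), and between mutant and Cre-negative 1 was higher (1.55%) and 5 lower (3.71%). Ms4a4c, of the same family as Ms4a6c, stood at 1.22 to 1.88 CPM in mutant libraries, 2.27 and 4.51 CPM in Cre-negative libraries and 2.01 to 3.26 CPM in wild-type libraries. All 4 mutant libraries lay below all 5 others for Ms4a4c, with a mutant-minus-wild-type log2 fold change of -0.77 (SE 0.29, unadjusted p = 0.0249, adjusted p = 0.998 in edgeR). Vcan, the proteoglycan versican of classical monocytes, stood at 0.589 to 1.15 CPM in mutant, 1.39 and 1.08 CPM in Cre-negative and 1.16 to 1.66 CPM in wild-type libraries. Cd36, a scavenger receptor for oxidised lipids, stood at 3.71 to 4.03 CPM in mutant, 5.28 and 11.9 CPM in Cre-negative and 3.69 to 5.49 CPM in wild-type libraries. Csf3r, the receptor for granulocyte colony-stimulating factor, stood at 165 to 178 CPM in mutant, 143 and 87.2 CPM in Cre-negative and 166 to 180.4 CPM in wild-type libraries, below all others in both Cre-negative libraries. Ly6c1, the close neighbour of Ly6c2, was high only in cre_negative_780, at 7.07 CPM, against 0.682 to 1.52 CPM in the other 8.

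Of 19 further dendritic cell genes, 9 were positive between mutant and wild type (median -0.15), 10 between Cre-negative and wild type (0.10) and 6 between mutant and Cre-negative (-0.09). In edgeR 1 of the 19 was higher (1.86% of all genes) and 1 lower (1.31%) in mutant than in wild type at an unadjusted p under 0.05. Between Cre-negative and wild type 1 was higher (3.64%) and 1 lower (1.59%), and 1 was lower in mutant than in Cre-negative (3.71%). Spib, a PU.1-related factor of plasmacytoid dendritic cells and B cells, stood at 2.08, 1.27, 3.62 and 5.60 CPM in mutant libraries, 2.67 and 1.61 CPM in Cre-negative libraries, and 1.29, 1.59 and 1.495 CPM in wild-type libraries. Clec10a, a lectin of dendritic cells and macrophages, stood at 5.57 to 7.25 CPM in mutant, 4.95 and 5.35 CPM in Cre-negative, and 6.52, 16.8 and 8.57 CPM in wild-type libraries. The wild-type values spread most widely for Clec10a among the 3 groups. Zbtb46, a transcription factor of classical dendritic cells that erythroid progenitors also use, stood at 4.43 to 7.81 CPM in mutant, 5.83 and 31.9 CPM in Cre-negative and 4.84 to 10.04 CPM in wild-type libraries. Of 19 genes of phagocyte signalling and the lysosome, 13 were positive between mutant and wild type (median 0.06), 14 between Cre-negative and wild type (0.07) and 8 between mutant and Cre-negative (-0.08). At the same unadjusted p in edgeR, 2 of these 19 were higher in Cre-negative than in wild type (3.64% of all genes). In the other comparisons 0 of them passed it. Cybb, the catalytic chain of the phagocyte oxidase, stood at 10.8, 17.4, 16.8 and 27.4 CPM in mutant, 24.7 and 20.5 CPM in Cre-negative, and 16.5, 6.82 and 11.2 CPM in wild-type libraries. Fcer1g, the signalling chain shared by immunoglobulin receptors, stood at 15.2 to 22.7 CPM in mutant, 22.9 and 25.1 CPM in Cre-negative and 15.4 to 18.4 CPM in wild-type libraries.

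Markers of other cell types also differed between libraries, some with the phagocyte genes and some not. The 11 resident macrophage genes summed to 54.2, 55.4, 88.5 and 84.3 CPM in mutant libraries, 99.3 and 49.8 CPM in Cre-negative libraries, and 51.0, 44.4 and 36.2 CPM in wild-type libraries, a sum made mostly of Vcam1 and Axl. Mature neutrophil markers summed to 177 to 499 CPM in mutant, 381 and 104 CPM in Cre-negative and 115 to 219 CPM in wild-type libraries. B cell markers summed to 127 to 185 CPM in mutant, 211 and 81.5 CPM in Cre-negative and 74.6 to 138 CPM in wild-type libraries. Library cre_negative_780 was thus above cre_negative_819 for macrophage, neutrophil and B cell sums alike. Within the mutant group, B cell sums ran the other way from the macrophage sum, at 155 and 185 CPM in mutant_824 and mutant_827 and 144 and 127 CPM in mutant_829 and mutant_830. T and NK cell markers did so too, and summed to 138, 142, 102 and 108 CPM in mutant, 136 and 88.8 CPM in Cre-negative and 106 to 141 CPM in wild-type libraries. Erythroid markers summed to 239 to 411 CPM in mutant and 242 to 452 CPM in wild-type libraries, both far below cre_negative_819. Mast cell and basophil markers summed to 284 CPM in cre_negative_819, against 118 CPM in cre_negative_780, 86.0 to 131 CPM in mutant and 111 to 134 CPM in wild-type libraries. Primary granule markers of early neutrophils summed to 1586 to 1797 CPM in mutant, 2088 and 1465 CPM in Cre-negative and 1149 to 1527 CPM in wild-type libraries. No gene of these lists was at 0 in all libraries. Of the lineage antigens, Cd3e of T cells was at or near 0 (0.0190 to 0.0715 CPM in mutant, 0 and 0.110 CPM in Cre-negative, 0.0568 to 0.0931 CPM in wild-type libraries), whereas Itgam of myeloid cells was read at 39.0 to 73.8 CPM in mutant, 47.9 and 56.0 CPM in Cre-negative and 48.8 to 75.1 CPM in wild-type libraries. The part of these other cells in the differences of the phagocyte genes was not tested.

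**Figure D4:**
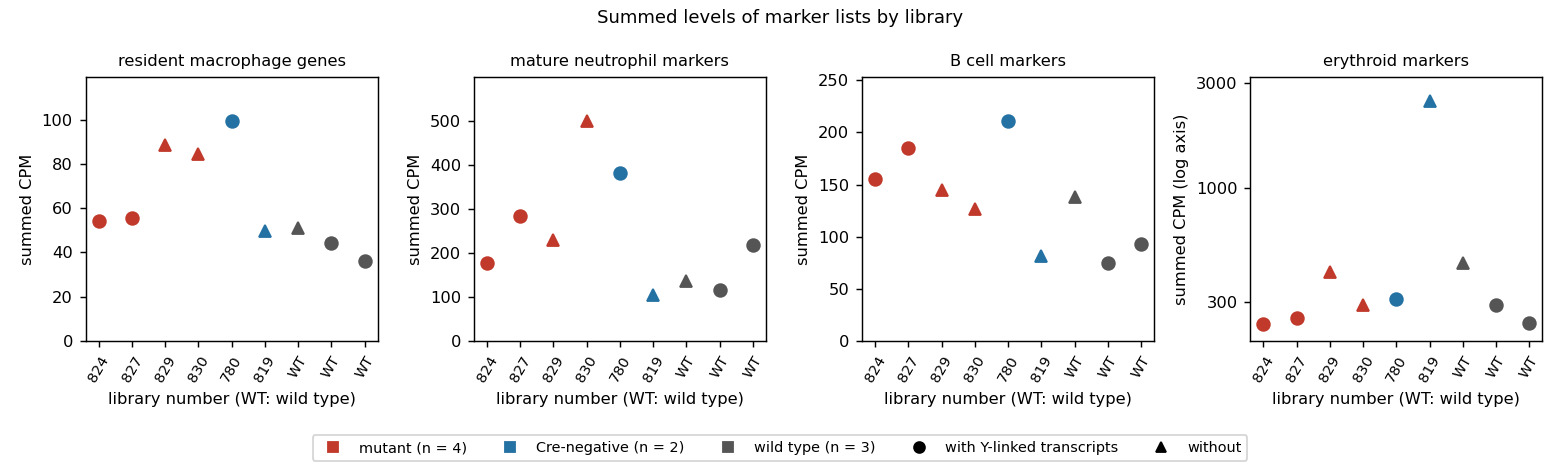
Summed CPM of the resident macrophage genes, mature neutrophil markers, B cell markers and erythroid markers (log axis for the last) in each library, coloured by group, with circles for libraries that hold Y-linked transcripts and triangles for those that do not. cre_negative_780 is high in the first 3 panels, mutant_830 is highest for neutrophil markers at 499 CPM, and cre_negative_819 stands far above the rest for erythroid markers at 2502 CPM.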

How the data were processed

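Sorted LSK cells gave total RNA, which was depleted of ribosomal RNA and made into stranded libraries, per the labels' protocols. The tools were STAR, HTSeq 0.5.3p3 and DESeq2 and the build was mm10 (GRCm38), per the submitters' processing notes. Annotation and strand setting: not given in the sources used here. The authors deposited raw counts for 39179 Ensembl genes and 5 summary rows. The summary rows took 40.5% to 47.3% of the reads of a library, and no test or library size used them. Among them, reads without a unique alignment took 21.6% to 28.3%, which lowers the counts of near-identical genes. The deposited scaled signal is the same counts over a single factor for each library (largest relative deviation 5.33e-15) and entered no result.

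GENCODE for GRCm38 gave symbols and coordinates for 37607 identifiers. After filterByExpr, 18576 genes were left, and TMM gave the scaling. The quasi-likelihood test of edgeR 4.0.16 (R 4.3.3) used the 9 libraries in a single fit of group means, with 3 two-sided comparisons adjusted by Benjamini-Hochberg over all genes at 0.05. SE is the log2 fold change over the square root of F, and intervals are 95%. CPM uses the TMM-scaled library size, and CPM per kilobase divides by exon length. Limma 3.58.1 (voom with quality weights) and DESeq2 1.42.0 were alternatives. A library was taken to hold Y-linked transcripts when those genes reached 1 CPM.

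Sample titles gave groups and library numbers. The labels do not say that the libraries come from separate animals, so p-values measure the spread between these libraries, which may be technical. That spread exceeded sampling noise in every group (chi-square over its degrees of freedom 13.4 or more). The 30 genes and the other lists were chosen with earlier results of these data known. Genes with a mean of at least 1 CPM were given by library and the other 6 by range. Up to 3 genes of each further list with the lowest p per comparison were eligible to be named. Simulated counts with known changes were used to check the edgeR code. Some libraries are not named, and results that single them out are not reported here.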

Additional observations from a re-analysis of the deposited data

How the results depend on the processing

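Of the 29 tested genes, 19 kept the sign of their log2 fold change under all 18 alternatives between mutant and wild type, 17 between Cre-negative and wild type and 12 between mutant and Cre-negative. DESeq2 called 36, 55 and 22 genes in these comparisons and limma-voom with quality weights called 13 between mutant and wild type, against 0 in edgeR; 1 of the 13 was among the 29, Vcam1. At an unadjusted p under 0.05, limma-voom gave 16 of the 29 higher between mutant and wild type, against 2 in edgeR. Limma-voom also moved the median of the 29 genes between Cre-negative and wild type to 0.93, against 0.64. With 1 library left out, the genes called ranged from 0 to 650 between Cre-negative and wild type and from 0 to 1835 between mutant and Cre-negative, the highest without cre_negative_780, where 0 to 4 of the 29 were called. Without cre_negative_819 these counts were 62 and 9. The median of the 29 genes ranged from 0.092 to 0.51 between mutant and wild type, from 0.47 to 0.96 between Cre-negative and wild type, and from -0.32 to 0.089 between mutant and Cre-negative. Axl between mutant and Cre-negative was -0.03 in the full fit and ranged from -0.55 (without cre_negative_819) to 0.91 (without cre_negative_780). Its sign was opposite to that of the full fit under 6 of the 18 alternatives, the fit without cre_negative_780 among them. Upper-quartile scaling moved the share of positive fold changes over all genes to 51.5%, 48.3% and 53.2%, against 45.7%, 53.2% and 44.2%. The causes were not tested, except that leaving out a library leaves fewer samples. No paired analysis was possible because the library numbers differ between groups. The counts of genes whose groups do not overlap with 1 library left out, and the values within libraries of 1 kind of Y-linked transcripts were chosen after seeing the data. Marco, Cd300e, Ms4a7, Klra2, Cd209a and Fcgr1 held under 50 counts in each library, so their levels carry the largest counting error of the 30 genes.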
